A study of Homo sapiens with 6 samples.

Results

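The USP genes encode ubiquitin-specific proteases, and 50 of the 56638 gene symbols in the counts were taken as members: the symbols that read USP, a number and an optional X with nothing after, leaving out USP18. Of these, 44 had enough reads to be tested. RNA was sequenced from cells labelled HT29, an established human colorectal cancer line, in 3 libraries of cells labelled wild type that received a nonspecific control siRNA and 3 libraries labelled RNF6 knockdown that received an siRNA against RNF6 (knockdown libraries 1 to 3). All 6 libraries came from the same line, grown in RPMI-1640 medium with fetal bovine serum. The labels do not give the siRNA sequences, the time to harvest or whether the replicates were grown apart. The p-values therefore rest on the variation among these 6 libraries alone, and that variation may be technical.

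Ubiquitin is a small protein that ligases attach to other proteins as single units or chains, often as a mark for the proteasome. USP enzymes are cysteine proteases that cut ubiquitin off again, and they form the most numerous class of human deubiquitinases. RNF6 is a RING-type ligase, so the comparison sets the transcripts of ubiquitin-removing enzymes against the depletion of an enzyme that adds ubiquitin. Enzyme activity and protein levels were not measured here.

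The shared feature of the family is the stretch around the catalytic cysteine. In the longest coding transcript of each member in GENCODE release 29, a search for the conserved word of that stretch found it in 45 of the 50 members. It was not found in USP39, USP41, USP50, USP53 and USP54. A miss of this 1 word does not show that the cysteine or the activity is missing. The coding stretches of 8 members are printed because their transcripts carry the results below or because they are the closest relatives of one that does. Each is 30 bases of coding strand, and the codon of the cysteine is in capitals.
USP25: aatgttggcaatactTGTtggtttagtgct
USP28: aatgttggcaatacaTGTtggtttagtgct
USP22: aaccttgggaacacaTGCttcatgaactgc
USP27X: aatcttggcaacacgTGCtttatgaactgc
USP7: aatcagggagcgactTGTtacatgaacagc
USP49: aacctgggcaacaccTGCtacatgaactcc
USP37: aatttgggaaataccTGCtatatgaatgct
USP5: aacctgggtaacagcTGCtacctcaactct
The marked codon is number 178 in USP25, 171 in USP28, 185 in USP22, 87 in USP27X, 223 in USP7, 262 in USP49, 350 in USP37 and 335 in USP5, counted from the start codon. USP25 and USP28 have 29 of the 30 bases in common and USP22 and USP27X 26 of 30. Over the whole coding sequence USP25 and USP28 were 60.7% identical and USP22 and USP27X 65.5%, as 1 minus the edit distance over the longer length.

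The gene counts of the libraries summed to between 6808771 and 11071456 reads, and the members took 0.290% to 0.344% of them. RNF6 was at 54.3, 45.2 and 57.8 CPM (counts scaled to a common library size) in control replicates 1, 2 and 3 and at 16.5, 16.2 and 16.9 CPM in the RNF6 siRNA replicates, a fall of 3.17-fold (adjusted p = 2.12e-06). Of 9 colon epithelial markers, EPCAM had 218 ± 9.91 and 227 ± 15.04 CPM in control and RNF6 siRNA libraries and CDX2 15.8 ± 2.48 and 16.1 ± 0.823 CPM, while CDX1 had 0 reads in all 6 libraries and CEACAM5, VIL1 and KRT20 were at most at 0.184, 0.688 and 2.35 CPM in any library. Several defining markers of the labelled tissue were thus at or near 0, and whether the cells match the label was not tested. Exons of VIL1 overlap those of USP37, and reads there can be set aside in counting, so the VIL1 level is uncertain. The 9 markers summed to 3190.0 to 4139 CPM in control and 1628 to 1861 CPM in RNF6 siRNA libraries. Most of that was KRT8, at 3064 ± 442 and 1256 ± 104 CPM. KRT8, KRT18 and KRT20, the last with few reads, fell 2.44-fold, 3.07-fold and 3.04-fold. CDH1 did not pass, at 106 ± 1.45 and 114 ± 1.98 CPM (adjusted p = 0.426). Leukocyte markers (PTPRC, CD3E, CD68) summed to at most 0.368 CPM in any library, with CD68 at 0. Endothelial markers (PECAM1, VWF, CDH5) summed to at most 2.35 CPM, with PECAM1 at 0. VWF, with few reads, fell 2.02-fold (adjusted p = 0.0283). Fibroblast markers summed to 49.9 to 65.0 CPM in control and 69.5 to 84.6 CPM in RNF6 siRNA libraries. Nearly all of it was COL1A1, which rose 1.33-fold (adjusted p = 0.0197). The part of these shifts in the results on USP genes was not tested. Fewer cells of a kind and less RNA per cell cannot be told apart in these bulk samples.

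Of the 44 tested USP genes, 6 rose after RNF6 siRNA, 5 fell and 33 did not pass the test (edgeR's quasi-likelihood test, adjusted p below 0.05 over all genes tested). The called share was 25% of the members, against 32.7% of all 14685 genes tested. Over all genes 16.6% were called higher and 16.1% lower. USP22, USP49, USP37, USP5, USP35 and USP6 were higher, and USP25, USP7, USP20, USP27X and USP2 were lower. The changes were mostly small: 4 of the 44 were called with a fold of at least 1.5, against 17.2% of all genes, and USP25 alone had a called fold of at least 2, against 5.74% of all genes. The median log2 fold change of the members was 0.06 (0.01 over all genes), and the median of its size without the sign was 0.17 (0.28 over all genes). The groups' libraries did not overlap for 17 of the 44 members, 38.6%, against 44.2% of all genes. The number of calls depended on the libraries, for the members and for all genes. Without knockdown library 3, 2 members were higher and 2 lower, and 20.2% of all genes were called. Counts were 3 and 3 without knockdown library 2 (24.5% of all genes) or control 3 (20.8%). They were 5 and 2 without control 2 (28.3%) and 5 and 4 without knockdown library 1 (30.4%). Without control 1 they went up to 8 and 5 (39.1%). USP25, USP7, USP22 and USP49 were called under each of the 13 alternatives tried.

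**Figure D1:**
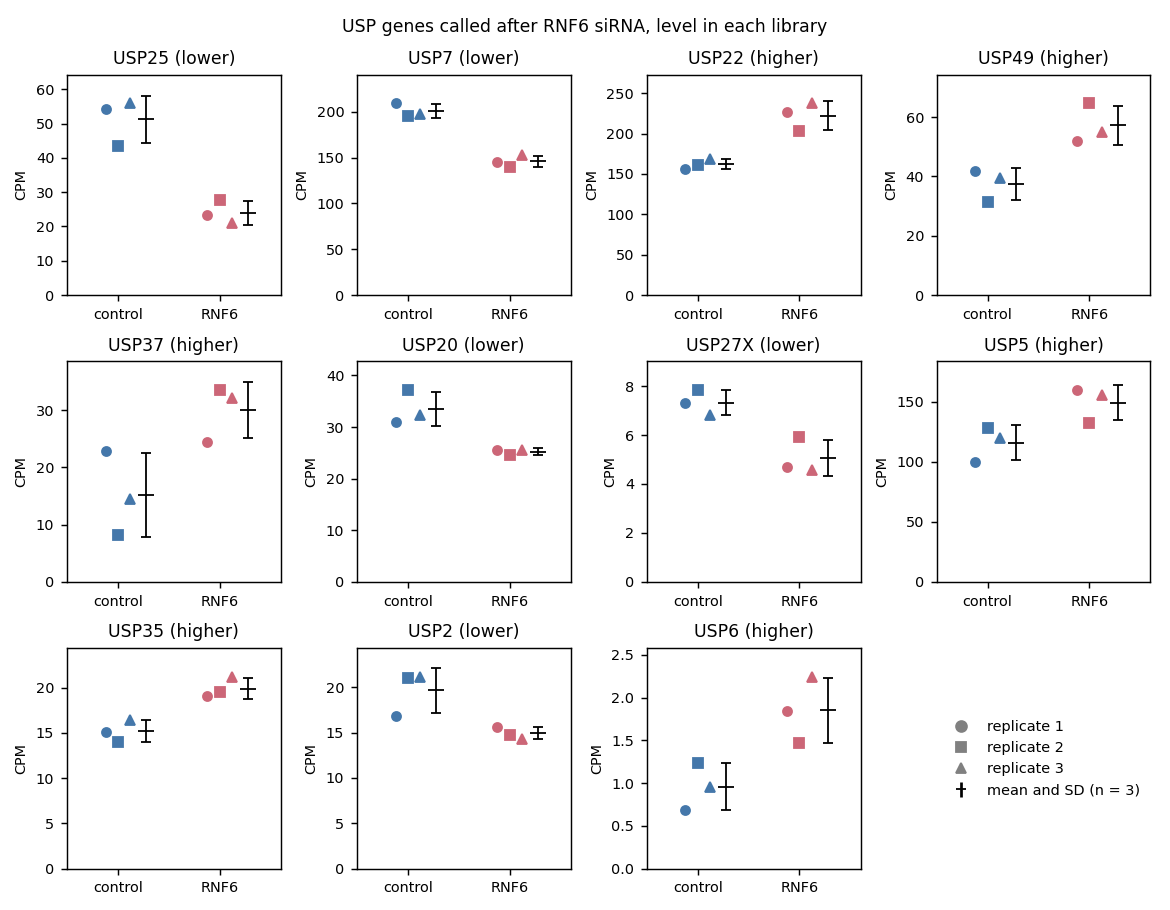
Level of the 11 called USP genes in CPM (vertical axis, from 0) in the 3 control siRNA and 3 RNF6 siRNA libraries, with symbols for the replicate number and a black mark for mean and SD (n = 3). In each panel the groups do not overlap; for USP37 the highest control library (22.8 CPM) lies close to the lowest RNF6 siRNA library (24.5 CPM).

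USP25 had the largest fall of the family. The enzyme trims ubiquitin chains in immune receptor and Wnt signalling, and a muscle isoform is known. Its transcript measured 54.3, 43.3 and 55.9 CPM in controls 1, 2 and 3, against 23.3, 27.7 and 20.9 CPM in knockdown libraries 1, 2 and 3. The lowest control library stood well above the highest RNF6 siRNA library. The level fell 2.15-fold, from 51.2 ± 6.86 to 24.0 ± 3.48 CPM (SD, n = 3; log2 fold change −1.10, SE 0.139, adjusted p = 8.51e-05), and over all alternatives the log2 fold change ran from −1.22 to −1.02. No annotated exon of another gene overlaps USP25, and none of its 50-base words occurs in transcripts of other genes. USP28, its nearest relative and a partner of the MYC-directed ubiquitin ligase FBW7, had 44.4 ± 5.42 and 52.8 ± 1.43 CPM in control and RNF6 siRNA libraries. Its libraries did not overlap, with control values of 50.4, 43.0 and 39.8 and RNF6 siRNA values of 51.2, 53.9 and 53.4 CPM, but it did not pass the test (log2 fold change 0.25, adjusted p = 0.104). Without control replicate 1 it passed, at an adjusted p of 0.0226. FBXW7, the gene of FBW7, had 36.2 ± 2.24 and 40.1 ± 2.502 CPM (adjusted p = 0.340).

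The start-site regions of USP25, the member with the largest fall, and of USP22, an abundant member that rose, are shown with the matches to the motifs searched in capitals. They are 300 bases from RefSeq on GRCh38.p14, from 250 bases before to 50 after the annotated start, read 5′ to 3′ on the gene's strand. The counts were made on hg19, and no coordinate was carried between the builds.
USP25, chr21:15729732-15730031, plus strand: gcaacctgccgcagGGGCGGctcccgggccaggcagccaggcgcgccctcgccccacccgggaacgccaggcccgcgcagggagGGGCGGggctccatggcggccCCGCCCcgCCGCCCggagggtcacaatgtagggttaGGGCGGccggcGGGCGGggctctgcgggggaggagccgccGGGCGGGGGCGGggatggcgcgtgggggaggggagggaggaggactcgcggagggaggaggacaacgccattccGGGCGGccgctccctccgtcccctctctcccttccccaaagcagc
USP22, chr17:21042962-21043261, minus strand: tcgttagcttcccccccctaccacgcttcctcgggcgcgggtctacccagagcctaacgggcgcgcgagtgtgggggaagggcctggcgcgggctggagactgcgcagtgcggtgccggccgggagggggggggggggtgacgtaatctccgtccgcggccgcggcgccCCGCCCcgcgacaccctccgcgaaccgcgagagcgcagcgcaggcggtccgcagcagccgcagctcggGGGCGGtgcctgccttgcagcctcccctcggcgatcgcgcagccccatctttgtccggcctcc
All capitals are the SP1 box GGGCGG on either strand, 9 times in USP25 and 2 times in USP22. Of 37 tested members with an entry of this kind, 83.8% had that box, as did 45% of all 35116 entries of the same length. These are unlike sets, here and for the motifs below. The members were tested genes without repeated symbols, while the entries at large were not limited to tested genes and repeats were not removed. The shares therefore cannot show a trait of the family. Among the called members with an entry it was found in 5 of 5 that rose and 4 of 5 that fell. The CCAAT box (CCAAT) was found in 27.0% of the members and 34.6% of all entries, the ETS site CCGGAAGT in 8.11% and 4.14%, the E-box CACGTG in 8.11% and 7.26%, the NRF1 site in 10.8% and 5.78%, and the cyclic AMP response element TGACGTCA in 0 of the 37 and 1.85%. Both strands were searched, each motif was counted by itself, and matches of different motifs may overlap. A match is a word in the window and nothing more.

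Among USP genes that act on histones, USP22 and USP49 rose and USP27X fell. The list held 9 genes, of which 7 were tested and USP44 and USP51 had too few reads. Over all genes tested 32.7% were called, and no test compared the role lists, here and below, with that share. USP22 is the deubiquitinase of the SAGA coactivator complex and takes ubiquitin from histones H2A and H2B. It was at 156, 161 and 169 CPM in controls, against 226, 203 and 237 CPM in knockdown libraries. Every RNF6 siRNA library lay above every control library. The level rose 1.37-fold, from 162 ± 6.30 to 222 ± 17.8 CPM (SD, n = 3; log2 fold change 0.46, SE 0.0961, adjusted p = 0.00311). Exons of 2 other annotated genes cover 13.2% of its annotated length, and without a stated strand setting their reads cannot be told apart.

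USP27X, a relative of USP22 that binds the same adaptor proteins outside SAGA, went the other way. It had few reads, at 7.29, 7.83 and 6.83 CPM in controls, against 4.69, 5.90 and 4.57 CPM in knockdown libraries. It fell 1.47-fold, from 7.32 ± 0.504 to 5.06 ± 0.737 CPM (SD, n = 3; adjusted p = 0.0274). It lost its call on leaving out control 2 or 3 or knockdown library 1 or 3 and with DESeq2, with adjusted p from 0.0257 to 0.114. Such lists and ranges for single genes, here and below, leave out the alternative with a replicate block. The calls lost with that block are given at the end. The third relative, USP51, had 0 reads in all 6 libraries. Of the adaptors themselves, ATXN7L3, which activates these 3 enzymes, rose 1.24-fold, from 101 ± 8.08 to 125 ± 7.21 CPM (adjusted p = 0.0313), and lost its call on leaving out control 1 or 3 or knockdown library 1 or 3 and with no filter on low counts, with adjusted p from 0.0225 to 0.117. ENY2, the small subunit of the same module, had 109 ± 11.7 and 101 ± 4.77 CPM (adjusted p = 0.418). ATXN7, ATXN7L1 and ATXN7L2 did not pass, with log2 fold changes of 0.07, 0.11 and 0.00.

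USP49, which removes ubiquitin from histone H2B, was at 41.7, 31.3 and 39.4 CPM in controls, against 52.0, 64.6 and 55.1 CPM in knockdown libraries. The groups were apart, with the lowest value in control replicate 2 and the highest in RNF6 siRNA replicate 2. The level rose 1.53-fold, from 37.5 ± 5.43 to 57.2 ± 6.58 CPM (SD, n = 3; log2 fold change 0.61, SE 0.132, adjusted p = 0.00366). Its relative USP44, a regulator of the spindle checkpoint, had between 2 and 4 reads in each library and was not tested. The other tested histone enzymes did not pass: USP3, which acts on H2A, had 33.9 ± 1.82 and 35.4 ± 1.58 CPM (adjusted p = 0.678), USP16, another H2A enzyme, 64.7 ± 9.71 and 75.4 ± 3.74 CPM (adjusted p = 0.173), USP21 18.6 ± 1.06 and 21.3 ± 2.45 CPM (adjusted p = 0.278) and the nucleolar USP36 82.9 ± 2.87 and 74.2 ± 7.45 CPM (adjusted p = 0.284). USP16 passed without control replicate 1, at an adjusted p of 0.0198.

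Of 9 USP genes linked to MDM2, MYC and cyclins, 8 were tested, USP5 and USP37 rose, and USP7 and USP2 fell. Of all genes tested, 32.7% were called. USP7, also known as HAUSP, removes ubiquitin from the ligase MDM2. It measured 209, 195 and 198 CPM in controls 1, 2 and 3, against 145, 140.2 and 153 CPM in knockdown libraries 1, 2 and 3. All control libraries exceeded all RNF6 siRNA libraries by more than the spread within either group. The level fell 1.37-fold, from 201 ± 7.65 to 146 ± 6.23 CPM (SD, n = 3; log2 fold change −0.46, SE 0.0913, adjusted p = 0.00218). No transcript of 4 listed partners and substrates passed the test. MDM2 had 147 ± 31.1 and 174 ± 15.7 CPM (adjusted p = 0.190) and MDM4 75.7 ± 7.003 and 88.9 ± 5.51 CPM (adjusted p = 0.113). GMPS, a metabolic enzyme that binds USP7, had 106 ± 9.14 and 126 ± 4.52 CPM (adjusted p = 0.0681) and the ligase TRIM27 117 ± 9.19 and 110.0 ± 4.16 CPM (adjusted p = 0.499).

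USP37, which protects cyclin A from degradation by the anaphase-promoting complex, had the largest fold among the genes that rose. Its level varied widely between control libraries, at 22.8, 8.17 and 14.5 CPM, and was 24.5, 33.5 and 32.1 CPM in knockdown libraries. Control replicate 1 nearly reached RNF6 siRNA replicate 1. The mean went from 15.2 ± 7.36 to 30.0 ± 4.87 CPM, a rise of 1.998-fold (SD, n = 3; log2 fold change 1.00, SE 0.258, adjusted p = 0.0102). It lost its call on leaving out knockdown library 2 or 3 and with DESeq2, with adjusted p from 1.32e-08 to 0.0666 and a log2 fold change from 0.69 to 1.38. Exons of VIL1 cover 32.8% of the annotated length of USP37, and VIL1 was at no more than 0.688 CPM in any library. Reads on shared exons can be set aside as ambiguous in counting. The low VIL1 count therefore cannot show whether VIL1 transcripts bear on the USP37 level. Of its relatives, USP29 had 0 reads in all 6 libraries and USP26 between 0 and 3.

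USP5 disassembles free ubiquitin chains and so returns single ubiquitin to the pool. It was at 99.5, 128 and 119 CPM in controls, against 159, 132 and 156 CPM in knockdown libraries. The lowest RNF6 siRNA library lay just above the highest control library. It rose 1.29-fold, from 116 ± 14.7 to 149 ± 14.8 CPM (SD, n = 3; adjusted p = 0.0297), and lost its call on leaving out control 1 or 3 or knockdown library 1 or 3, with adjusted p from 0.00829 to 0.123. Its relative USP13 had 35.9 ± 8.13 and 37.8 ± 3.53 CPM (adjusted p = 0.706). USP2, an enzyme that acts on MDM2 and cyclin D1 and has a circadian rhythm in many tissues, was at 16.8, 21.0 and 21.1 CPM in controls, against 15.6, 14.8 and 14.3 CPM in knockdown libraries. Control replicate 1 lay just above the highest RNF6 siRNA library. It fell 1.32-fold, from 19.6 ± 2.48 to 14.9 ± 0.655 CPM (SD, n = 3; adjusted p = 0.0357), and lost its call on leaving out control 2 or 3 or knockdown library 2 or 3 and with DESeq2, with adjusted p from 0.00542 to 0.144. Exons of another annotated gene cover 17.5% of USP2.

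USP10, which is bound by the stress-granule proteins G3BP1 and G3BP2, did not pass. Its libraries were apart, at 201, 181 and 191 CPM in controls, against 159, 164 and 164 CPM in knockdown libraries, and it was 1.18-fold lower (log2 fold change −0.23, adjusted p = 0.0647). The transcripts of its partners changed in opposite directions. G3BP1 fell 1.71-fold, from 419 ± 41.3 to 245 ± 24.1 CPM (adjusted p = 1.83e-04), and G3BP2 rose 2.41-fold, from 139 ± 18.2 to 335 ± 28.9 CPM (adjusted p = 6.53e-06). G3BP1 was at 463, 381 and 413 CPM in controls, against 217, 259 and 259 CPM in knockdown libraries, and G3BP2 at 160.4, 128 and 129.8 and 303, 358 and 345 CPM. The groups do not overlap for either gene, and both were called under each of the 13 alternatives. USP42 was not called either, at 21.0 ± 0.827 and 18.1 ± 0.796 CPM (adjusted p = 0.172), with groups that did not overlap.

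Of 3 members linked to the proteasome and ubiquitin recycling, USP5 rose, and USP13 and USP14 did not pass. Of all genes tested, 32.7% were called. USP14 binds the proteasome and trims ubiquitin from substrates on their way in. It was at 119, 112 and 116 CPM in controls, against 113, 121 and 107 CPM in knockdown libraries, which overlap. Its log2 fold change was −0.03, with a 95% interval from −0.24 to 0.18 (adjusted p = 0.855). The proteasome subunit genes PSMD2, which docks USP14, and ADRM1, which docks the deubiquitinase UCHL5, had 512 ± 37.2 and 443 ± 35.2 CPM (adjusted p = 0.129) and 73.0 ± 17.0 and 61.9 ± 10.1 CPM (adjusted p = 0.296).

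Of 5 genes linked to endosomes and receptors, all 5 were tested, USP6 rose and USP20 fell. Of all genes tested, 32.7% were called. USP20, which acts in the recycling of the beta-adrenergic receptor and binds the von Hippel-Lindau protein, was at 31.0, 37.2 and 32.3 CPM in controls, against 25.7, 24.5 and 25.6 CPM in knockdown libraries. The 3 RNF6 siRNA values lay close together and below each control value. It fell 1.33-fold, from 33.5 ± 3.26 to 25.2 ± 0.640 CPM (SD, n = 3; adjusted p = 0.0174), and it lost its call on leaving out control 2 or knockdown library 2 or 3, with adjusted p from 0.00431 to 0.0726. Its relative USP33 had 132 ± 19.1 and 137 ± 16.3 CPM (adjusted p = 0.755).

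USP6, a primate gene that arose from USP32 and is known as a fusion oncogene in bone cysts, was near the detection limit. It had 5, 11 and 9 reads in control replicates 1, 2 and 3 and 20, 10 and 25 in the RNF6 siRNA replicates, or 0.688, 1.23 and 0.960 and 1.84, 1.48 and 2.24 CPM. The reads alone overlap between the groups, and the scaled levels do not. The rise was 1.93-fold (log2 fold change 0.95, SE 0.337, adjusted p = 0.0450). It lost its call on leaving out control 1 or 3 or knockdown library 1, 2 or 3, with no filter on low counts and with DESeq2, with adjusted p from 0.0421 to 0.190. Of the 50-base words of USP6 transcripts, 13.7% also occur in transcripts of other genes and 4.98% in those of USP32, so its level is uncertain. USP32 had 79.5 ± 7.73 and 83.1 ± 7.85 CPM (adjusted p = 0.705). USP8, which sorts the epidermal growth factor receptor on endosomes, had 84.4 ± 9.40 and 88.7 ± 8.81 CPM (adjusted p = 0.684), and no transcript of its partners STAM, STAM2, HGS and PTPN23 passed, with adjusted p of 0.171 for STAM and higher for the others.

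Of 3 members placed at mitochondria and the endoplasmic reticulum, USP35 rose and USP30 and USP19 did not pass. Of all genes tested, 32.7% were called. USP35, reported to counter mitophagy, was at 15.1, 13.99 and 16.4 CPM in controls, against 19.0, 19.5 and 21.2 CPM in knockdown libraries, with no overlap. It rose 1.31-fold, from 15.2 ± 1.22 to 19.9 ± 1.12 CPM (SD, n = 3; adjusted p = 0.0321). It lost its call on leaving out control 2 or 3 or knockdown library 2 or 3, with no filter on low counts and with DESeq2, with adjusted p from 0.0260 to 0.140. USP30, the outer-membrane enzyme that opposes the PINK1 and Parkin pathway, had 21.6 ± 1.505 and 21.3 ± 1.18 CPM, and its 95% interval ran from −0.29 to 0.24 (adjusted p = 0.898). Of genes that act with it, PINK1, the kinase that starts mitophagy, fell 1.63-fold, from 26.4 ± 3.65 to 16.1 ± 2.47 CPM (adjusted p = 0.00309). MARCH5, a mitochondrial ligase, rose 1.27-fold, from 81.7 ± 5.76 to 104 ± 13.6 CPM (adjusted p = 0.0350), and lost its call on leaving out control 2 or 3 or knockdown library 2 or 3 (adjusted p from 0.00973 to 0.149). TOMM20, an import receptor, had 288 ± 17.9 and 276 ± 16.4 CPM (adjusted p = 0.662). USP19, anchored in the endoplasmic reticulum, had 112 ± 11.9 and 117 ± 7.79 CPM (adjusted p = 0.721), and USP38, the relative of USP35, 58.5 ± 2.81 and 54.4 ± 7.14 CPM (adjusted p = 0.501).

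Of 9 USP genes linked to TGF-beta, Wnt and NF-kB signalling, USP25 fell and the other 8 did not pass. Of all genes tested, 32.7% were called. USP4, USP11 and USP15, 3 relatives that stabilise the TGF-beta receptor or SMAD proteins, had log2 fold changes of −0.09, −0.17 and −0.14, with adjusted p of 0.607, 0.379 and 0.326. TGFBR1, the gene of that receptor, rose 1.81-fold, from 54.9 ± 7.59 to 99.2 ± 13.99 CPM (adjusted p = 4.26e-04), and SMURF2, the ligase that targets it, had 304 ± 37.5 and 274 ± 18.5 CPM (adjusted p = 0.310). The splicing proteins SART3 and PRPF3, which recruit and are acted on by USP4 and USP15, had adjusted p of 0.0510 and 0.454. USP9X, an enzyme of cell polarity, MCL1 stability and SMAD4, was at 209.8, 158 and 178 CPM in controls, against 162, 188 and 190.5 CPM in knockdown libraries. The groups covered nearly the same range, and the log2 fold change was −0.01, with a 95% interval from −0.26 to 0.24 (adjusted p = 0.948). USP34, which stabilises axin, was spread widely, at 165, 97.9 and 133 and 116, 171 and 181 CPM (adjusted p = 0.340), and passed without control replicate 1 (adjusted p = 0.0433). AXIN1 rose 1.34-fold, from 22.7 ± 2.67 to 30.4 ± 5.16 CPM (adjusted p = 0.0392), and lost its call on leaving out control 1 or 3 or knockdown library 1 or 3 (adjusted p from 0.0189 to 0.157). AXIN2 had 29.3 ± 0.797 and 34.7 ± 1.58 CPM (adjusted p = 0.0977). USP31, an NF-kB regulator, had 31.8 ± 4.41 and 31.8 ± 3.03 CPM (adjusted p = 0.960). Exons of other annotated genes cover 18.0% of USP34, 23.0% of USP31, 22.7% of USP3 and 16.1% of USP54, so their levels are less certain.

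USP1, USP12 and USP46 share the activating protein WDR48, and none of the 3 passed. USP1, which removes ubiquitin from FANCD2 and PCNA in DNA repair, had 62.1 ± 13.1 and 65.0 ± 4.43 CPM (adjusted p = 0.746). USP12 had 88.5 ± 14.5 and 80.4 ± 10.9 CPM (adjusted p = 0.463) and USP46 139 ± 14.9 and 137 ± 10.1 CPM (adjusted p = 0.909), and their coding sequences were 75.9% identical. WDR48 fell 1.24-fold, from 66.4 ± 5.07 to 53.7 ± 4.95 CPM (adjusted p = 0.0479), close to the threshold: it lost its call on leaving out control 1 or 3 or knockdown library 1 or 3, with upper-quartile factors, with no scaling factors, with no filter on low counts and with DESeq2, with adjusted p from 0.0254 to 0.166. WDR20, the second cofactor of USP12 and USP46, had 27.6 ± 1.36 and 23.5 ± 2.10 CPM (adjusted p = 0.144). Among the substrates and cofactors of USP1, FANCD2 rose 1.40-fold, from 43.9 ± 5.27 to 61.3 ± 2.69 CPM (adjusted p = 0.00618), and ATAD5, which brings USP1 to PCNA, rose 1.89-fold, from 15.1 ± 3.99 to 28.4 ± 6.36 CPM (adjusted p = 0.00418). FANCI had 103 ± 17.2 and 118 ± 8.94 CPM (adjusted p = 0.236) and PCNA 245 ± 16.7 and 291 ± 18.9 CPM (adjusted p = 0.0674). Of the 6 members listed for DNA repair, 5 were tested and none passed, while 32.7% of all genes tested were called. Among them, USP47 had 86.3 ± 7.20 and 94.0 ± 7.28 CPM (adjusted p = 0.406). USP48 had 149 ± 9.45 and 132 ± 10.8 CPM (adjusted p = 0.187), and USP11 and USP28 are given above.

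USP39, USP53 and USP54, in which the word around the cysteine was not found, did not pass. USP39, a splicing factor, had 114 ± 10.4 and 132 ± 9.29 CPM (adjusted p = 0.152), with groups that did not overlap. USP53, a tight-junction protein, had 51.3 ± 11.7 and 64.2 ± 10.3 CPM (adjusted p = 0.144) and passed on leaving out control 1 (adjusted p = 0.00605) or knockdown library 1 (adjusted p = 0.0378). USP54 had 29.9 ± 3.15 and 31.1 ± 3.18 CPM (adjusted p = 0.732). USP50 had between 0 and 3 reads in each library, and USP52 has no row of its own. PAN2, the current symbol of that gene, lay outside the symbol rule and rose 1.78-fold, from 32.9 ± 1.44 to 58.6 ± 1.82 CPM (adjusted p = 8.21e-05). USP24, USP40, USP43 and USP45, without a role in the lists, had log2 fold changes of −0.01, 0.25, 0.23 and −0.03 and adjusted p of 0.964, 0.0895, 0.208 and 0.917. USP40 and USP43 were higher in every RNF6 siRNA library than in any control library. USP29 and USP51 had 0 reads in all 6 libraries, which allows a level of up to 0.269 to 0.443 CPM depending on the library (3 reads, counting error only). USP41 had 0 reads too, but 40.7% of its 50-base words also occur in transcripts of other genes, whose shared reads the counting can drop, so its level is uncertain and that limit does not hold for it.

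**Figure D2:**
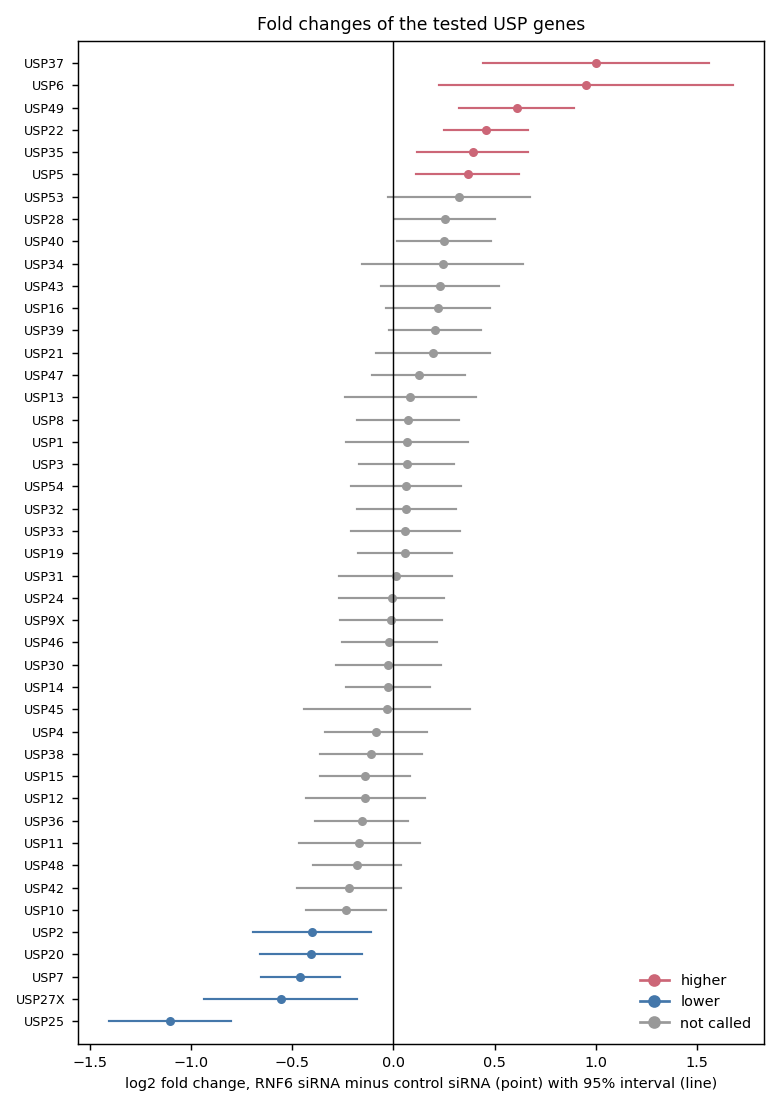
Log2 fold change (horizontal axis, RNF6 siRNA minus control siRNA) of the 44 tested USP genes in order of size, with 95% intervals from the edgeR fit as lines and colour for the call. USP25 stands apart at the lower end, and the 33 genes that were not called lie between −0.23 and 0.32.

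For the 33 members that did not pass, the point estimates lay between −0.23 and 0.32. In 31 of them the 95% interval of the log2 fold change stayed within a 1.5-fold change in either direction; the others, USP53 (−0.03 to 0.68) and USP34 (−0.16 to 0.64), reached beyond it. A miss of the threshold does not show that a level was the same. USP10, USP28, USP39, USP40, USP42 and USP43 did not pass although their groups did not overlap.

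Levels were compared between genes per length, as CPM per kb of annotated exon in GENCODE release 29. In control libraries USP10 was the most abundant at 37.6 ± 1.99 (SD, n = 3), followed by USP5 at 30.9 ± 3.93, USP39 at 28.9 ± 2.63, USP7 at 25.2 ± 0.960 and USP22 at 23.8 ± 0.926 CPM per kb. USP5 and USP39 lay within their spread of each other, as did USP7 and USP22. In RNF6 siRNA libraries USP5 led with 39.9 ± 3.96 CPM per kb, USP39 followed with 33.3 ± 2.35, USP22 with 32.6 ± 2.61 and USP10 with 31.9 ± 0.595, and USP7 was at 18.3 ± 0.782. USP39, USP22 and USP10 lay within their spread of each other there. USP7 and USP22, whose control libraries overlapped on this scale, were apart after RNF6 siRNA. At the lower end of the tested members were USP6 at 0.0852, USP37 at 1.63 and USP43 at 2.25 CPM per kb in control libraries. Exons that a cell does not use lower this value, so it is a rough scale.

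**Figure D3:**
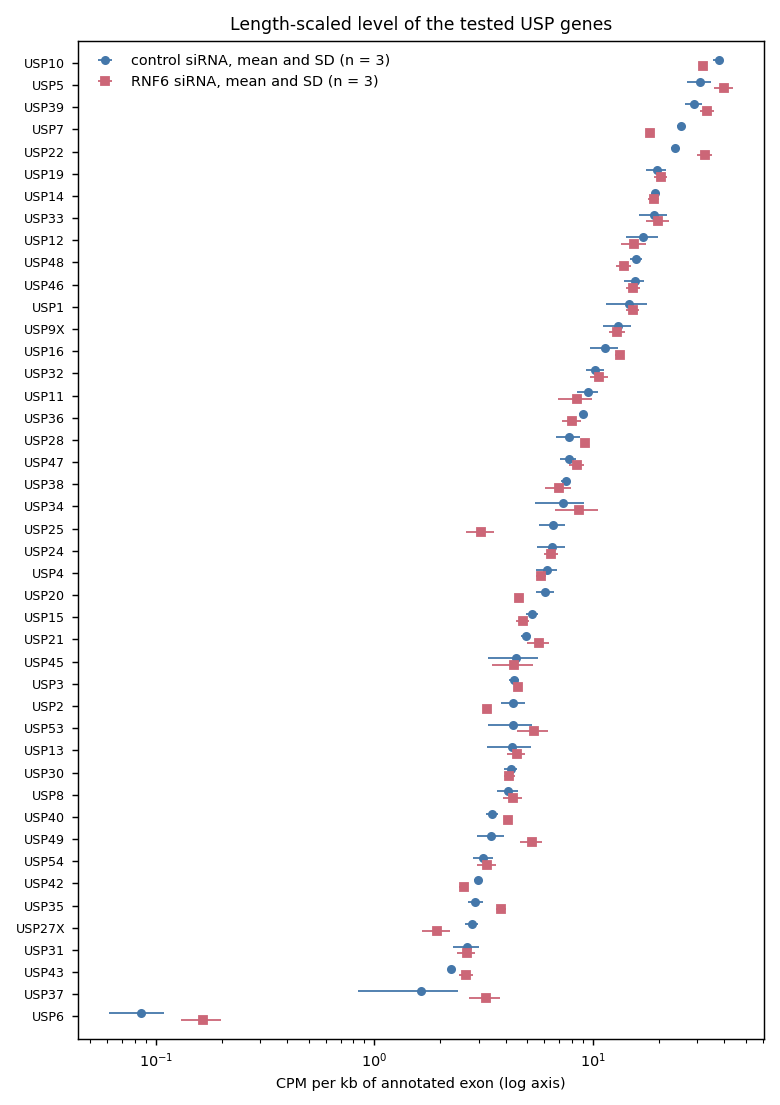
Mean level of the 44 tested USP genes in CPM per kb of annotated exon (horizontal log axis) in control siRNA (circles) and RNF6 siRNA libraries (squares), with SD (n = 3), ordered by the control level. USP10 leads in control libraries at 37.6, USP6 is lowest at 0.0852, and USP25, USP37 and USP6 show the widest gaps between the groups.

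Libraries within a group differed together across many USP genes. For 24 of the 44 tested members control replicate 1 was the highest and control replicate 2 the lowest of the controls, against 28.9% of all genes tested. RNF6 siRNA replicate 1 was the lowest of its group for 25 members, against 35.9% of all genes. Both held for 21 members, against 20.5% of all genes, among them USP34, USP45, USP53, USP9X, USP1, USP12 and, of the called genes, USP37 and USP49. Those 21 had a median annotated exon length of 9290.0 nt, and the other 23 had 5731 nt. Of the other called genes, USP7 followed this order only in the controls and USP35 only in the RNF6 siRNA libraries. USP25, USP22, USP5, USP2, USP20, USP27X and USP6 followed it in neither group. The share of reads that fell on no annotated gene was 9.04%, 5.90% and 7.07% in control replicates 1, 2 and 3 and 7.26%, 8.60% and 9.23% in the RNF6 siRNA replicates, and the share of gene reads on USP genes was 0.344%, 0.290% and 0.317% and 0.302%, 0.328% and 0.334%. Within each group both shares had the same order of libraries. The part of this difference between libraries in the results was not tested.

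**Figure D4:**
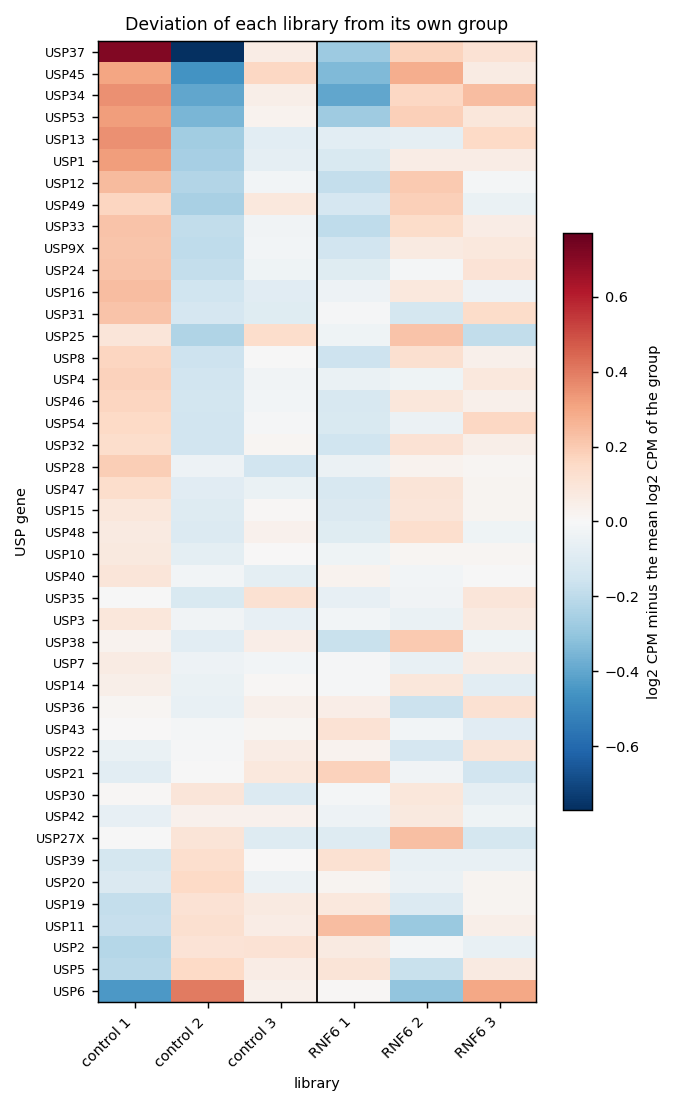
Deviation of each library from the mean of its own group, in log2 CPM, for the 44 tested USP genes (rows, ordered by control replicate 1 minus control replicate 2) in the 6 libraries (columns). Most rows are above the group mean in control replicate 1 and below it in control replicate 2 and RNF6 siRNA replicate 1, while USP6, USP5, USP2 and USP11 at the bottom run the other way in the controls.

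Outside the USP symbols, 12 of 30 tested genes of the other deubiquitinase families were called, 4 higher and 8 lower. That is 40%, against 32.7% of all genes tested. The genes were listed by family, which does not show that the protein of each removes ubiquitin. Their median log2 fold change was 0.01. Of 3 genes with a USP fold but no USP symbol, PAN2 rose, CYLD fell and USPL1 did not pass. Of the OTU family, OTUD3 rose 2.10-fold, from 58.0 ± 7.80 to 122 ± 7.44 CPM (adjusted p = 3.00e-05), ZRANB1 fell 1.57-fold (adjusted p = 8.06e-04), and OTUB1, OTUD5 and TNFAIP3, the gene of the NF-kB inhibitor A20, fell 1.36-fold, 1.32-fold and 1.34-fold (adjusted p = 0.0259, 0.0276 and 0.0333). Of the zinc-dependent JAMM family, PSMD14, the deubiquitinase built into the proteasome lid, fell 1.67-fold, from 188 ± 5.59 to 112 ± 3.32 CPM (adjusted p = 6.92e-05), STAMBPL1 and the signalosome subunit COPS5 fell 1.51-fold and 1.32-fold, and MPND rose 1.35-fold (adjusted p = 0.0486). FAM63B and ZUFSP rose 1.598-fold and 1.40-fold, BAP1 fell 1.30-fold, and CYLD, a USP-fold enzyme of NF-kB signalling without a USP symbol, fell 1.42-fold (adjusted p = 0.00556). OTUB1, OTUD5 and BAP1 lost their calls on leaving out control 2 or 3 or knockdown library 2 or 3, TNFAIP3 on leaving out control 1 or 3 or knockdown library 2 or 3 and with DESeq2, MPND on leaving out control 1 or 3 or knockdown library 1, 2 or 3, with no filter on low counts and with DESeq2, FAM63B on leaving out control 3 or knockdown library 2 or 3, and ZUFSP and COPS5 on leaving out control 3. Of 33 tested partner genes of USP enzymes, 7 rose and 3 fell, or 30.3% against 32.7% of all genes, with a median log2 fold change of 0.07. No test compared these families with the USP genes.

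**Figure D5:**
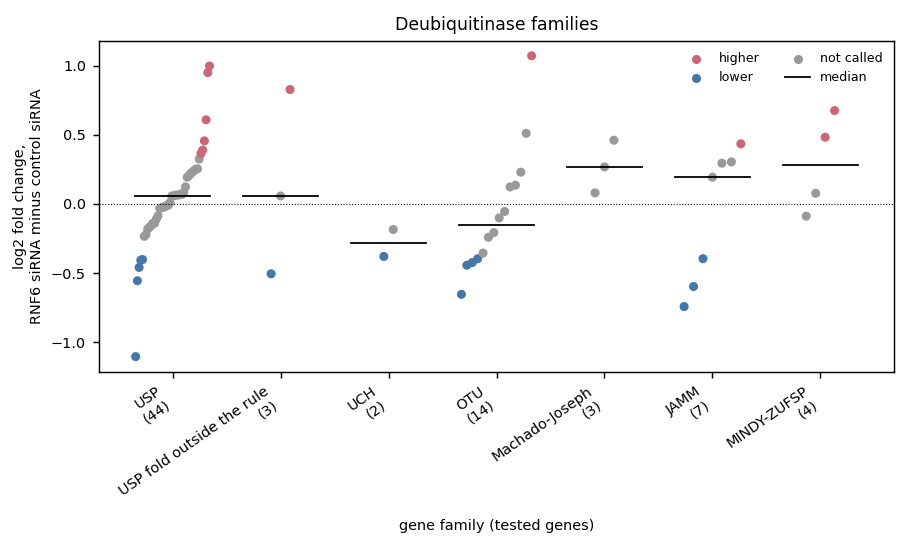
Log2 fold change (vertical axis, RNF6 siRNA minus control siRNA) of the tested genes of each deubiquitinase family, with colour for the call and a line at the median. The 44 USP genes centre on 0.06, PSMD14 (−0.74) is the lowest of the JAMM family, and OTUD3 (1.07) the highest of the OTU family.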

How the data were processed

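Per the labels' protocols, total RNA was taken with Trizol and libraries were made with an Illumina TruSeq RNA kit. The authors deposited 1 list of raw counts by gene symbol per library, without normalisation. The tools were TopHat2 2.0.11 for alignment and HTSeq for counting, with hg19 as the genome, per the submitters' processing notes. The sources used here give no HTSeq version or strand setting. HTSeq sets aside ambiguous reads and reads with several alignments, so genes that overlap or share sequence lose reads. Rows that name no gene held 27.3% to 29.4% of the listed reads and were left out.

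Counts were analysed in R 4.3.3 with edgeR 4.0.16: filterByExpr (minimum count 10, minimum total 15), TMM factors from 0.985 to 1.02, and glmQLFit and glmQLFTest with robust dispersions and the group as the only term, two-sided, on 14685 genes. P-values were adjusted by Benjamini-Hochberg over all of them and called below 0.05. Adjusted p-values are edgeR's, other tools being named where used. CPM are scaled to the reads in tested genes and by TMM. The median residual degrees of freedom were 13, and the common coefficient of variation was 10.5%. Libraries of a group differed by more than counting noise in every pair, so none was treated as a repeat deposit of another; that does not show separate cultures. One read was worth 0.0897 to 0.148 CPM. Alternatives were upper-quartile, relative log expression and no factors, no filter, DESeq2 1.42.0, limma-voom 3.58.1, a replicate block, and leaving out each library.

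All members were named, with each library's level for called members and USP7, USP14, USP22 and USP9X. Of other deubiquitinases and partners, called genes were named, up to 4 per family with the smallest adjusted p, and WDR48, ATXN7L3 and ENY2 in any case. TNFAIP3, the remaining called OTU gene, the uncalled genes of those lists and the library values of USP10, USP28, USP34, G3BP1 and G3BP2 were added after their values were seen. Members, lists and motifs were chosen with earlier results of these data known, so their counts are descriptions. Exon lengths, overlaps, shared 50-base words and coding sequences came from GENCODE release 29 (GRCh38), which matched all 50 members by symbol, and start-site sequences from RefSeq, which matched 39. Protein sequences were not used here, and some genes of the lists are not reported here.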

Additional observations from a re-analysis of the deposited data

How the results depend on the processing

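USP25, USP7, USP22 and USP49 kept their call under all 13 alternatives, the other 7 called members lost it under at least 1, and none of the 11 changed direction. Of the 33 members not called, USP16, USP28, USP34 and USP53 passed under at least 1 alternative. Counts below are higher, then lower. DESeq2 called 3 and 3 USP genes, and 2113 and 2122 over all genes. Leaving out 1 library gave 2 to 8 higher and 2 to 5 lower USP genes. For the lists of other deubiquitinase families, with CYLD, PAN2 and USPL1 included, it gave 3 to 7 and 4 to 9. It gave 4 to 9 and 2 to 4 partner genes, and 1514 to 2910 and 1478 to 2967 over all genes. RNF6 kept its call throughout. The libraries showed no sign of pairing by replicate number. Deviations from the group means correlated at −0.463, −0.252 and 0.0519 for numbers 1, 2 and 3, and 0 of 6 libraries correlated best with its own number. Deviations within a group of 3 depend on each other, so these values cannot show whether the libraries were prepared in numbered pairs. The report's lists of lost calls and ranges of adjusted p for single genes leave the replicate block out. With it, 6 of the 11 called members (USP2, USP5, USP6, USP20, USP27X and USP35) lost their call, as did ATXN7L3, AXIN1, MARCH5 and WDR48 among the partners and BAP1, COPS5, FAM63B, MPND, OTUB1, OTUD5, TNFAIP3 and ZUFSP. With the replicate block, 3 and 2 USP genes and 2 and 4 genes of the other deubiquitinase lists were called. So were 4 and 2 partner genes and 1421 and 1321 genes over all. Members with few reads, such as USP6, USP44 and USP26, are limited by depth, and 3 counts, the limit that a count of 0 allows, are worth 0.269 to 0.443 CPM in these libraries.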
